A study of Mus musculus with 2 samples.

Results

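The 42 genes described here act in mitosis, as parts of the spindle, the kinetochore, the spindle checkpoint, condensin and the machinery of cytokinesis. They were taken by name from a list, and all 42 were present among the 22711 genes of both files. The data are allele-resolved RNA-seq of immortal mouse embryonic fibroblasts, cultured cells from hybrids of C57BL/6N (B6) and PWK/PhJ (PWK), with polyadenylated RNA amplified by Smart-seq2. One line, PWK-Xi, carries its inactive X chromosome (Xi) on the PWK copy, and its strain label is C57BL/6N X PWK/PhJ. The other, B6-Xi, carries it on the B6 copy, and its strain label is PWK/PhJ X C57BL/6N. No treatment is given for either, and both are described as immortal lines, with how they were immortalised not given in the sources used here. There was 1 library per line, so every difference below is a difference between those 2 libraries, without a replicate check and without a test. Levels are FPKM, which scales fragments to the length of the transcript and the size of the library, summed over the B6 and PWK alleles unless an allele is named. The B6 share is the B6 part of that sum, and X-linked genes outside this set had a median share of 100% in PWK-Xi and 0% in B6-Xi, so that X-linked expression came from the allele the line names give as active. The question was how these genes compared between the lines, and whether their B6 shares followed the allelic imbalance of the chromosomes on which they lie.

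Mitotic genes are transcribed in a wave that begins late in the cell cycle and ends with cell division, so their transcripts in a culture come mostly from cycling cells. Kinetochores are protein assemblies on the centromere that hold spindle microtubules. The checkpoint keeps the ubiquitin ligase APC/C idle until all chromosomes are attached, after which securin is destroyed, separase opens cohesin and the sister chromatids part. Many promoters of this wave hold a cell cycle homology region, a short element bound by the DREAM and MuvB complexes near the transcription start, together with CCAAT boxes bound by NF-Y.

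Promoter sequence was one feature that the choice of genes did not use. RefSeq windows of GRCm38.p6, from 250 bases before the start of a gene to 50 after it, matched 36 of the 42 genes by symbol or synonym. The other 6 were Aurkb, Spc24, Incenp, Kif20a, Tpx2 and Smc4. The letters TTTGAA, the core of the cell cycle homology region, were searched on both strands and occurred in 26 of the 36 (72.2%), against 20.2% of 27025 genes with a window. Among the 4435 of these genes that reached 5 FPKM in PWK-Xi or B6-Xi, 14.5% held them. A TTTGAA that began between 50 bases before and 44 bases after the start occurred in 63.9% of the 36, against 5.72% of all genes. CCAAT, also read on both strands, occurred in 75% against 41.1%, and both motifs together in 63.9% against 7.97%. These matches are letters in a window and were not tested for binding. The 23 genes with TTTGAA that reached 5 FPKM in either line had a median log2 difference between the lines of 0.45, and the 10 without it had 0.38. The 4 windows below belong to genes whose alleles are described later. Capitals mark TTTGAA or its complement TTCAAA, and CCAAT or its complement ATTGG. They are Plk1 on the plus strand of chr7:122159185-122159484, Cenpa on the plus strand of chr5:30666636-30666935, Smc2 on the plus strand of chr4:52438971-52439270 and Birc5 on the plus strand of chr11:117848987-117849286.
Plk1: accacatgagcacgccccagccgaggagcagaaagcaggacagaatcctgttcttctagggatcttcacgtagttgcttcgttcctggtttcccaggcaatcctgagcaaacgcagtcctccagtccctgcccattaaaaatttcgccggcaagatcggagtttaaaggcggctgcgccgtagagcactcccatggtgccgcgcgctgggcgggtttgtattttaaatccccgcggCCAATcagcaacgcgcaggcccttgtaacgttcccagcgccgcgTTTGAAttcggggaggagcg
Cenpa: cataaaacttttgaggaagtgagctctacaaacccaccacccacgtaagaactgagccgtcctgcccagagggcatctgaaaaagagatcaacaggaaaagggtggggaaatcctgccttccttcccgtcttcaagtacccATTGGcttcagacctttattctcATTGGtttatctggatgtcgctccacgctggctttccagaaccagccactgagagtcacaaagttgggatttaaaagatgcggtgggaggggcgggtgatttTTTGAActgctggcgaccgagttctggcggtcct
Smc2: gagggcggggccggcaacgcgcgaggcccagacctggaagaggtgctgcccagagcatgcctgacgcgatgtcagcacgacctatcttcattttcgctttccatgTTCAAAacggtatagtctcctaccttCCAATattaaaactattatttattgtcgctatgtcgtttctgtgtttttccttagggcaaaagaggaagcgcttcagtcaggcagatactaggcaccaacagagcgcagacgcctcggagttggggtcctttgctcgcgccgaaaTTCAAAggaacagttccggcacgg
Birc5: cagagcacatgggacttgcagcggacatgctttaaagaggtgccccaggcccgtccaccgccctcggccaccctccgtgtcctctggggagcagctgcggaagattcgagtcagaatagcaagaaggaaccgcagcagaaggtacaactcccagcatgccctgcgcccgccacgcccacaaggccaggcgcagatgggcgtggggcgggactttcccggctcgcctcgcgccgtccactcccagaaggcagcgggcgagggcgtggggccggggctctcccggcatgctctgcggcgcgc
TTTGAA began 30 bases after the start in Plk1, 16 bases after it in Cenpa and 26 bases after it in Smc2. Smc2 held another copy further upstream. In the window of Birc5 neither motif was found.

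All of the mitotic genes but 1 were above 0 in PWK-Xi, and all but 2 in B6-Xi. Bub1b was listed at 0 in both lines, as were 42.2% of all genes, and Racgap1 was listed at 0 in B6-Xi alone. An exact 0 in these files can be a failed estimate, since genes that fibroblasts use strongly, such as Vim, were also listed at 0 in both. At least 5 FPKM was reached by 39 of the genes in PWK-Xi and by 31 in B6-Xi. The summed FPKM of the 42 was 804.1 in PWK-Xi and 610.6 in B6-Xi, a ratio of 1.32, while that of all genes had a ratio of 0.898. A sum rests most on abundant genes, and the fibroblast marker S100a4 alone had 2321 FPKM in PWK-Xi and 13006 FPKM in B6-Xi. By median, genes that reached 5 FPKM in either line were higher in PWK-Xi, as given below. Levels kept much the same order in both lines, with Pearson's r of 0.91 between the log2 FPKM of the 40 genes above 0 in both, a description across genes of 2 libraries. Birc5, Ube2c and Cenpa were the highest in PWK-Xi, and Birc5, Ube2c and Top2a in B6-Xi.

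Most of these genes were somewhat higher in PWK-Xi, few by much. The difference was log2((PWK-Xi + 1)/(B6-Xi + 1)). Among genes that reached 5 FPKM in PWK-Xi or B6-Xi, 5 of 39 mitotic genes were at least 2-fold higher in PWK-Xi, against 17.8% of 5490 genes, and 0 were at least 2-fold lower, against 5.83%. The 5 were Racgap1, Smc2, Cenpa, Sgol2 and Bub1. At 4-fold the counts were 1 higher, Racgap1, against 7.05% of all genes, and 0 lower, against 1.33%. Racgap1 counts through a listed 0. No test stands behind these counts. Of the 39, 8 passed the minimum through PWK-Xi alone and 0 through B6-Xi alone, against 1105 and 425 of all 5490 genes. Requiring a mean of 5 FPKM and a value above 0 in both lines left 2 of 32 at least 2-fold higher, against 12.6% of 4695 genes. The median difference was 0.45 for the 39 and 0.23 for all 5490. All genes above 0 in both lines had a median of 0.19, and the log2 differences called relative below have this shift subtracted. A difference above 0 was found for 30 of the 39 (76.9%), against 62.1% of the 5490 genes. Above the shift lay 27 of the 39, against 2861 of the 5490 genes. Directions were also read under 3 scalings, as deposited, relative to the shift, and with equal summed FPKM. Of the 40 mitotic genes above 0 in both lines, 27 were higher and 7 lower in PWK-Xi under each scaling. All genes were not counted in this way. For Pttg1, Prc1, Mad2l1, Birc5, Ndc80 and Kif11 the direction depended on the scaling. Within 1.5-fold of each other in the 2 lines were 24 of 38 genes above 0 in both (63.2%), against 56.9% of 5241.

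**Figure D1:**
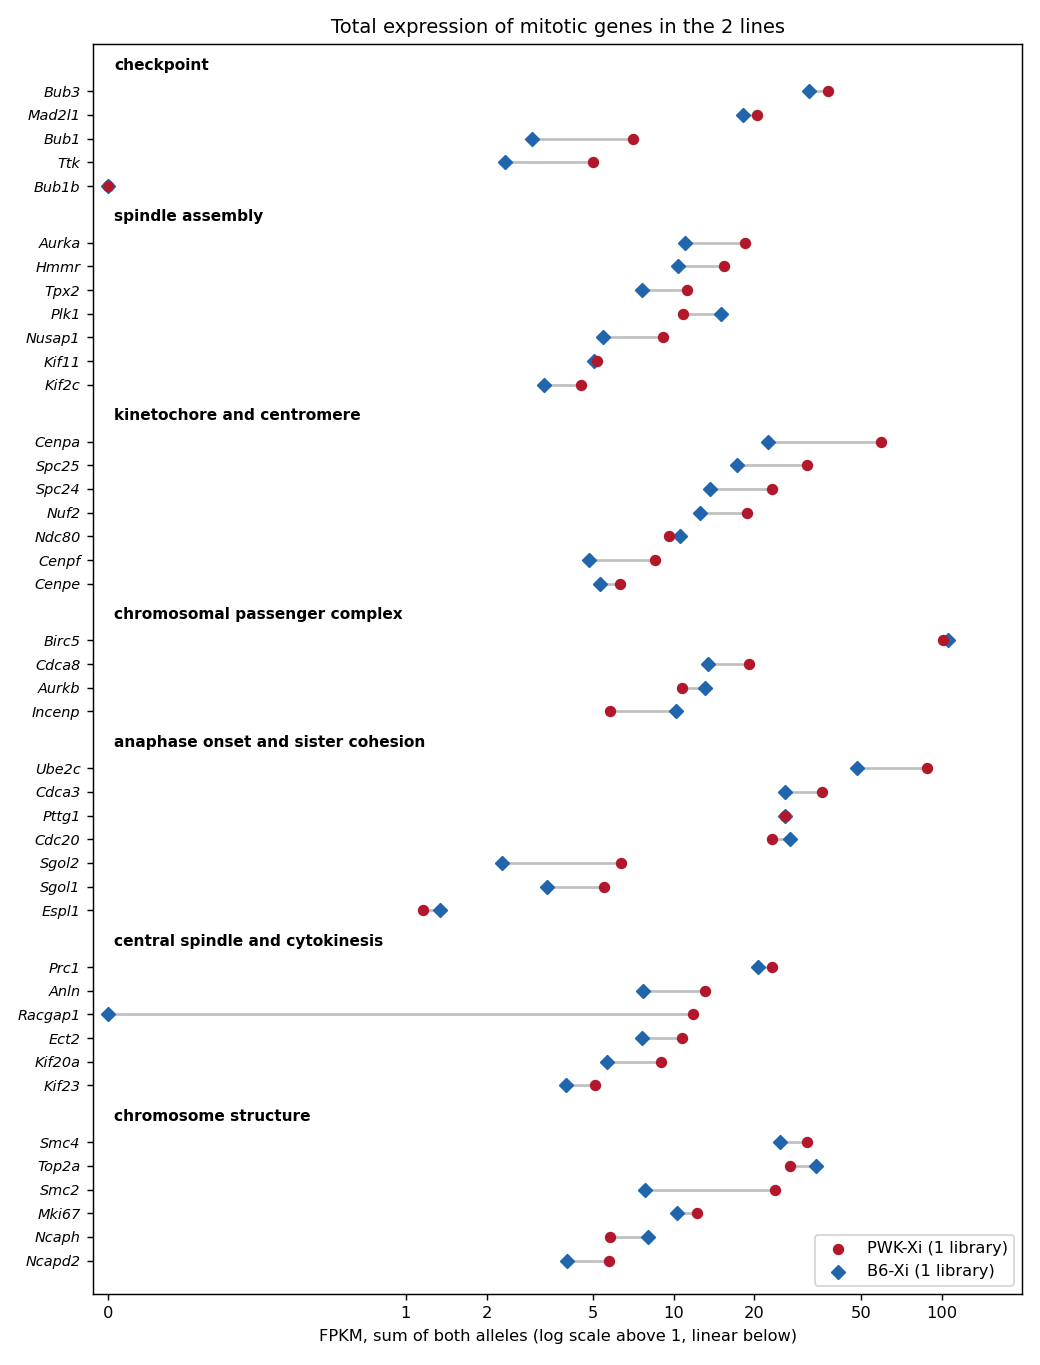
Total FPKM of each of the 42 mitotic genes, sum of both alleles, in PWK-Xi (circles) and B6-Xi (diamonds), 1 library each, grouped by role on an axis that is logarithmic above 1 FPKM. Most circles lie to the right of their diamonds, Racgap1 is at 0 in B6-Xi and Bub1b is at 0 in both.

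The checkpoint genes separated into a high and a low pair. Bub3, which loads the Bub kinases on the kinetochore, had 37.7 FPKM in PWK-Xi and 31.8 FPKM in B6-Xi, and Mad2l1, the inhibitor of Cdc20, had 20.5 and 18.1 FPKM. Both stayed within 1.5-fold between the lines. Bub1, a kinase that recruits shugoshin and other checkpoint proteins, had 7.02 FPKM in PWK-Xi and 2.95 FPKM in B6-Xi, a relative log2 difference of 0.83. Ttk, the kinase that starts the checkpoint signal, had 5.01 and 2.35 FPKM (0.65). Depth is unknown, so the counting error of these low levels could not be given.

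The kinetochore genes had the highest median among the 7 roles, at a log2 difference of 0.71 as deposited, with 6 of 7 above the shift of all genes. That shift was exceeded by 2861 of all 5490 genes. Cenpa, the histone H3 variant that marks centromeres, had 59.2 FPKM in PWK-Xi and 22.5 FPKM in B6-Xi, 2.63-fold higher in PWK-Xi, a relative log2 difference of 1.16. The 4 subunits of the Ndc80 complex, the microtubule coupler, differed unequally. Spc25 had 31.5 and 17.3 FPKM in PWK-Xi and B6-Xi, Spc24 had 23.2 and 13.6, Nuf2 had 18.8 and 12.5, and Ndc80 had 9.62 and 10.51. The order Spc25, Spc24, Nuf2, Ndc80 was the same in both lines, but Spc25 stood 3.27 times above Ndc80 in PWK-Xi and 1.64 times above it in B6-Xi. Cenpf, a large protein of the outer kinetochore, had 8.53 and 4.83 FPKM, and the motor Cenpe had 6.31 and 5.31 FPKM.

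The chromosomal passenger complex was the only one of the 7 roles with a median below 0, at -0.16 as deposited and -0.01 with equal summed FPKM. Birc5 (survivin), its small targeting subunit, had 101 FPKM in PWK-Xi and 106 FPKM in B6-Xi, and was the most abundant of the 42 in both. Aurkb, its kinase, had 10.8 and 13.0 FPKM. Incenp, the scaffold that activates Aurkb, had 5.76 FPKM in PWK-Xi and 10.2 FPKM in B6-Xi, a relative log2 difference of -0.93 and the lowest of all members. Cdca8 (borealin) went the other way, with 19.03 and 13.44 FPKM. Birc5 therefore stood 17.6 times above Incenp in PWK-Xi and 10.3 times above it in B6-Xi.

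Among spindle assembly genes, Aurka, a centrosomal kinase, had 18.4 FPKM in PWK-Xi and 11.04 FPKM in B6-Xi, and Tpx2, which activates it on the spindle, had 11.2 and 7.58 FPKM. Plk1, the polo-like kinase of mitotic entry, had 10.9 and 14.9 FPKM and so was lower in PWK-Xi, with a relative log2 difference of -0.62. Kif11, the motor that pushes the spindle poles apart, had 5.18 and 5.05 FPKM. The microtubule-binding genes Hmmr (15.4 and 10.4 FPKM) and Nusap1 (9.14 and 5.46 FPKM) were both higher in PWK-Xi. Kif2c, a microtubule depolymerase, stayed under 5 FPKM in both lines, at 4.51 and 3.27.

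Genes of anaphase onset were uneven. Ube2c, the ubiquitin-conjugating enzyme of the APC/C, had 87.8 FPKM in PWK-Xi and 48.2 FPKM in B6-Xi. Its activator gene Cdc20 had 23.3 and 27.1 FPKM, and securin, Pttg1, had 25.9 and 26.1 FPKM, so these 3 genes of one step did not differ together. Sgol2, a shugoshin that protects centromeric cohesin, had 6.35 and 2.29 FPKM (relative log2 difference 0.96), and Sgol1 had 5.50 and 3.37 FPKM. Cdca3, a substrate of the APC/C, had 35.8 and 25.9 FPKM. Separase, Espl1, was the lowest expressed of the genes above 0, at 1.16 and 1.34 FPKM.

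In cytokinesis, Anln (anillin) had 13.1 FPKM in PWK-Xi and 7.68 FPKM in B6-Xi, and Prc1, which bundles the central spindle, had 23.3 and 20.6 FPKM. The motors Kif20a (8.93 and 5.61 FPKM) and Kif23 (5.08 and 3.96 FPKM) and the exchange factor Ect2 (10.7 and 7.58 FPKM) were all higher in PWK-Xi by less than 2-fold. Racgap1, the partner of Kif23 in centralspindlin, had 11.8 FPKM in PWK-Xi and was listed at 0 in B6-Xi. The same listing at 0 in B6-Xi was found for 4.76% of the 5065 genes that reached 5 FPKM in PWK-Xi, and no fold is given.

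Among chromosome structure genes, Smc2 and Smc4 form the core dimer of condensin. Smc2 had 23.9 FPKM in PWK-Xi and 7.79 FPKM in B6-Xi, 3.07-fold higher in PWK-Xi, while Smc4 had 31.5 and 24.9 FPKM. The ratio of Smc2 to Smc4 was 0.76 in PWK-Xi and 0.313 in B6-Xi. Ncapd2 (5.748 and 3.9996 FPKM) and Ncaph (5.79 and 7.98 FPKM), further condensin subunits, differed in opposite directions. Top2a, the topoisomerase that disentangles chromatids, had 27.2 and 34.0 FPKM, and Mki67, the coat protein of mitotic chromosomes, had 12.2 and 10.3 FPKM.

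Other genes of the same processes, from lists made for comparison, gave a similar picture. The 5 lists of mitotic genes held 93 genes, of which 62 reached 5 FPKM in 1 or both lines. Of these, 11 were at least 2-fold higher in PWK-Xi, against 17.8% of all genes, and 1 at least 2-fold lower, against 5.83%. Their median was 0.43, or 0.23 relative to all genes. The list of mitotic entry had 4 of 12 at least 2-fold higher in PWK-Xi, against the same 17.8% of all genes, and a median of 0.57. In it the Cdk subunit Cks1b had 258.3 FPKM in PWK-Xi and 117.6 FPKM in B6-Xi, the cyclin Ccnb2 had 76.9 and 29.3 FPKM, the transcription factor Mybl2 had 8.39 and 1.43 FPKM, and Cdk1 itself had 37.5 and 30.9 FPKM. Ccna2 was level, at 26.1 and 26.2 FPKM. Of the 4 mitotic entry genes at least 2-fold higher, Mybl2 and Pkmyt1 (7.45 and 3.18 FPKM) reached 5 FPKM in PWK-Xi alone. The other condensin subunits all were above 0 in both lines. Of them, 3 of 4 were at least 2-fold higher in PWK-Xi, against 17.8% of all genes. Among these 3, Ncapd3 (5.57 FPKM in PWK-Xi and 1.41 FPKM in B6-Xi) and Ncapg2 reached 5 FPKM in PWK-Xi alone. Ncapg had 15.4 and 5.16 FPKM and Ncapg2 had 12.2 and 3.51 FPKM, while Ncaph2 had 22.2 and 18.4 FPKM. Ncapg2 and, among replication genes, Rrm2 lie on chromosome 12, whose median B6 share was 52.9% in PWK-Xi and 0% in B6-Xi, and both were listed at 0 for the B6 allele in B6-Xi.

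For the 3 lists that follow, the base over all genes was 17.8% past 2-fold upward in PWK-Xi and 5.83% downward. Further kinetochore genes had 3 of 19 past 2-fold upward in PWK-Xi and 1 past 2-fold downward. All 3, Casc5, Cenpk and Oip5, count through a listed 0 in B6-Xi, and Casc5 and Oip5 had 5.67 and 5.82 FPKM in PWK-Xi. The lower one was Zwint, a checkpoint platform protein, with 19.7 FPKM in PWK-Xi and 51.0 FPKM in B6-Xi. Pmf1, of the Mis12 complex, had 46.8 and 25.9 FPKM, Cenph had 23.5 and 13.1 FPKM, and Cenpk had 6.92 FPKM in PWK-Xi and was listed at 0 in B6-Xi. APC/C subunits had a median of 0.27, with 1 of 14 at least 2-fold higher. That one was Ube2s, its chain-elongating enzyme, at 52.8 and 16.0 FPKM. Anapc13 had 96.9 and 58.7 FPKM, Anapc5 had 51.2 and 45.8 FPKM, and Anapc2 was the lowest by difference, at 12.8 and 22.8 FPKM. Other spindle and cytokinesis genes had a median of 0.18, or -0.02 relative to all genes, with 0 of 13 past 2-fold in either direction. Haus1, Tacc3 and Ckap2 had 21.8, 15.7 and 13.9 FPKM in PWK-Xi and 19.2, 13.3 and 13.3 FPKM in B6-Xi, and the extremes were Kif20b (7.85 and 3.48 FPKM) and Kif3a (3.85 and 5.83 FPKM).

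DNA replication genes, which mark S phase, had a median of 0.62, with 5 of 22 at least 2-fold higher in PWK-Xi and 0 lower. All genes had 17.8% higher and 5.83% lower. Pcna had 139.9 FPKM in PWK-Xi and 60.0 FPKM in B6-Xi, and Rrm2 had 73.0 and 22.8 FPKM. Tk1 had 35.6 and 49.4 FPKM, and the cyclin Ccne1 had 11.4 FPKM in PWK-Xi and was listed at 0 in B6-Xi. In bulk samples a larger share of cycling cells and more RNA per cell cannot be told apart. Marker lists of other cell types were also read. Fibroblast markers were above 0 for 11 of 13 genes in PWK-Xi and 9 of 13 in B6-Xi. Their summed FPKM was 2980 in PWK-Xi and 13332 in B6-Xi, of which S100a4 made 2321 and 13006. Without S100a4 the sum turned to 659 in PWK-Xi and 326 in B6-Xi. Of the 10 fibroblast markers that reached 5 FPKM in 1 or both lines, 4 were 2-fold or more higher in PWK-Xi and 2 were 2-fold or more lower. The base over all genes was again 17.8% and 5.83%. Dcn (decorin) had 456.4 FPKM in PWK-Xi and 79.1 FPKM in B6-Xi, while the collagen gene Col1a2 had 69.2 and 134.3 FPKM. Pluripotency markers were above 0 for 4 of 5 genes in PWK-Xi, and all 5 were listed at 0 in B6-Xi. Their sum in PWK-Xi was 17.8 FPKM, of which Pou5f1, the only one to reach 5 FPKM, made 15.1. The B6 share of Pou5f1 in PWK-Xi was 100%, with neighbours at 57.3%. The part of pluripotency markers in the differences above was not tested. Epithelial, endothelial, immune, muscle and neural lists summed to between 0.205 and 5.36 FPKM in PWK-Xi and to at most 2.91 FPKM in B6-Xi. The highest of each were Krt8, Kdr, Cd68, Des and Tubb3, at 0.461, 0.123, 3.25, 2.11 and 5.32 FPKM in PWK-Xi, with Cd68 at 1.39 and Tubb3 at 2.91 FPKM in B6-Xi and the other 3 listed at 0 there.

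**Figure D2:**
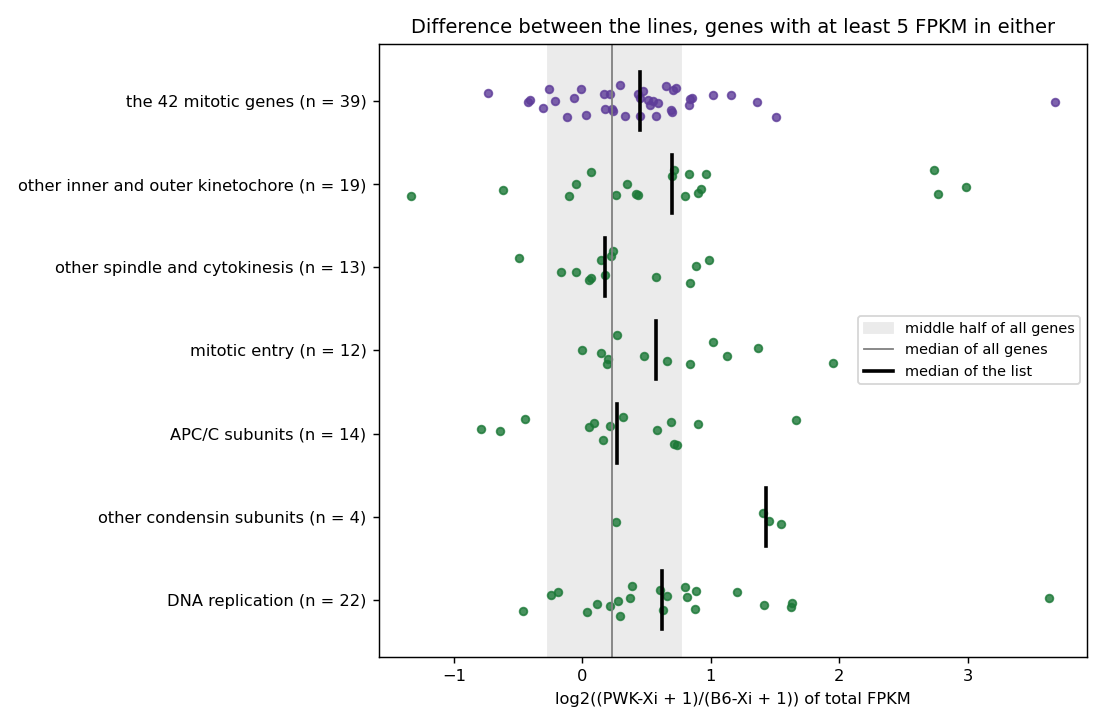
Difference between the lines, log2((PWK-Xi + 1)/(B6-Xi + 1)), for the mitotic genes and 6 comparison lists, 1 point per gene that reached 5 FPKM in PWK-Xi or B6-Xi. The grey band is the interquartile range of all 5490 genes, around their median of 0.23, and black bars are list medians, which run from 0.18 for other spindle genes to 1.43 for other condensin subunits.

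The allelic shares were then read against the chromosomes. The median B6 share of the mitotic genes was 53.0% in PWK-Xi (41 genes) and 50.7% in B6-Xi (40 genes), beside 52.8% and 50.0% for all autosomal genes with at least 1 FPKM. Of the 42 genes, 24 lie on the 9 autosomes whose median share stood more than 5 points from the autosomal median in 1 or both lines, and none lies on the X. Each share was compared with the median of the 20 nearest measured genes, 10 on each side. It lay within 10 points of that median for 32 of 41 mitotic genes in PWK-Xi (all autosomal genes 60.2%) and for 24 of 40 in B6-Xi (48.8%). It lay more than 20 points away for 2 of 41 in PWK-Xi (all genes 15.9%) and 6 of 40 in B6-Xi (26.8%). With a minimum of 5 FPKM, 3 of 39 in PWK-Xi (11.7%) and 4 of 31 in B6-Xi (18.1%) lay more than 20 points away. By direction, 1 of 41 was above and 1 below in PWK-Xi (all genes 9.05% and 6.87%), and 4 of 40 were above and 2 below in B6-Xi (13.7% and 13.1%). At any distance, 19 of 41 were above their neighbours in PWK-Xi (49.7%) and 22 of 40 in B6-Xi (48.1%). A share of at most 10% or at least 90% was found for 1 of 41 in PWK-Xi (4.91%) and for 4 of 40 in B6-Xi (14.5%). Some shares moved in coarse steps. A ratio of whole numbers no larger than 10 was matched to within 0.001 points by 2 of 41 genes in PWK-Xi and by 14 of 40 in B6-Xi. Of all autosomal genes, 10.3% did so in PWK-Xi and 45.4% in B6-Xi. Across the 40 genes with a share in both lines, the difference in share between the lines correlated with that of the neighbours at Pearson's r of 0.65, where all points come from the same 2 libraries and genes of 1 chromosome share neighbours.

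**Figure D3:**
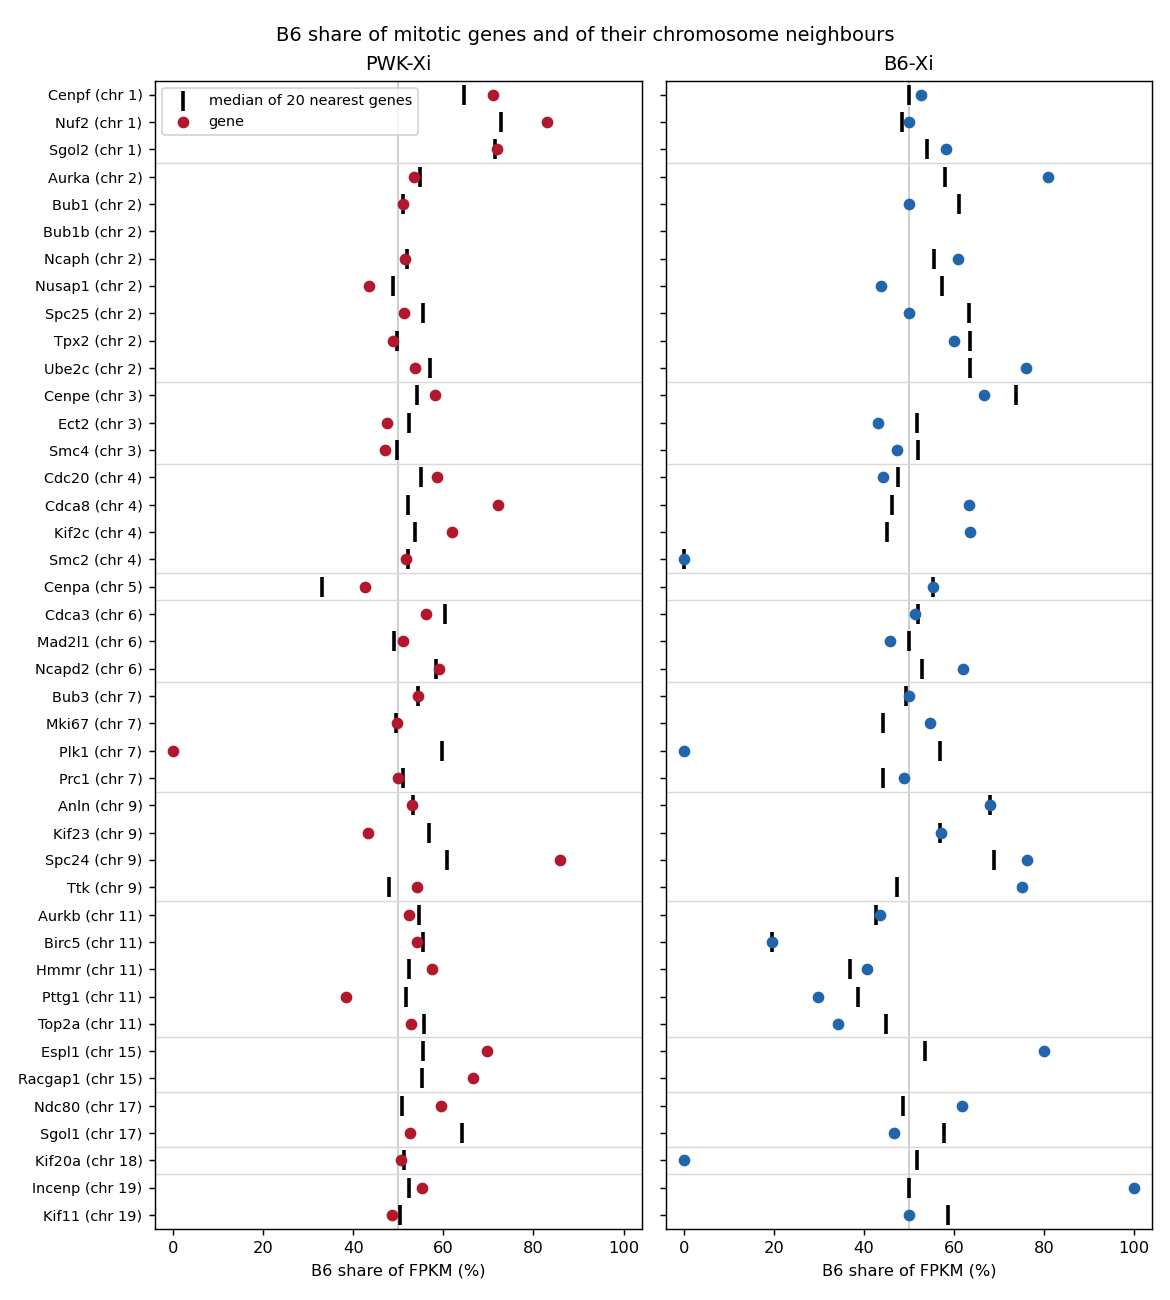
B6 share of each mitotic gene (points) and the median share of its 20 nearest measured genes (vertical ticks), by chromosome, in PWK-Xi (left) and B6-Xi (right), 1 library each. The chromosome 1 genes lie to the right in PWK-Xi only, the chromosome 11 genes lie to the left in B6-Xi, Smc2 is at 0% in B6-Xi with its neighbours, and Plk1 is at 0% in both lines without them.

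Several genes followed a local imbalance closely. Smc2 lies in a part of chromosome 4, from B4galt1 to Jun, where the median B6 share of other genes was 53.7% in PWK-Xi and 0% in B6-Xi. Its B6 allele had 12.4 FPKM in PWK-Xi and 0 in B6-Xi. Its PWK allele had 11.6 FPKM in PWK-Xi and 7.79 FPKM in B6-Xi. So the 2 alleles were nearly equal in PWK-Xi, and the PWK allele alone was present in B6-Xi, at a lower level. Birc5 lies at the end of chromosome 11, where other genes between Mfsd11 and Sirt7 had a median share of 55.4% in PWK-Xi and 18.4% in B6-Xi. Its B6 allele had 54.7 and 20.6 FPKM in PWK-Xi and B6-Xi, and its PWK allele had 46.4 and 85.1 FPKM. The alleles thus differed between the lines in opposite directions, by 2.65-fold and 1.83-fold, while the total stayed level. The other 4 genes of chromosome 11, Pttg1, Top2a, Hmmr and Aurkb, had B6 shares of 38.4%, 52.9%, 57.4% and 52.4% in PWK-Xi and of 29.8%, 34.2%, 40.7% and 43.6% in B6-Xi, all lower in B6-Xi.

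On chromosome 1, with a median of 70.2% in PWK-Xi and 51.2% in B6-Xi, Nuf2, Sgol2 and Cenpf had shares of 83.0%, 71.9% and 71.1% in PWK-Xi and of 50.0%, 58.2% and 52.8% in B6-Xi. For Cenpf, the B6 allele was 2.38-fold higher in PWK-Xi (6.06 and 2.55 FPKM) and the PWK allele was level (2.46 and 2.28 FPKM). For Nuf2, the B6 allele was 2.49-fold higher (15.6 and 6.27 FPKM) and the PWK allele was 1.96-fold lower (3.20 and 6.27 FPKM). Cenpa is the only one of the genes on chromosome 5, which leaned to PWK in PWK-Xi with a median of 36.4%, against 51.0% in B6-Xi. Its share was 42.5% in PWK-Xi and 55.4% in B6-Xi. Both of its alleles were higher in PWK-Xi, B6 at 25.2 and 12.4 FPKM and PWK at 34.1 and 10.0 FPKM.

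Chromosome 2 leaned to B6 in B6-Xi, with a median of 60.8%, against 52.9% in PWK-Xi. Of its 8 mitotic genes, 7 had a share. In B6-Xi these were 81.0% for Aurka, 75.9% for Ube2c, 60.9% for Ncaph, 60% for Tpx2, 50% for Bub1 and Spc25, and 43.8% for Nusap1. In PWK-Xi they lay between 43.5% and 53.7%. For Ube2c the B6 allele was 1.29-fold higher in PWK-Xi (47.1 and 36.6 FPKM) and the PWK allele 3.50-fold higher (40.7 and 11.6 FPKM). Aurka showed the same pattern, with B6 at 9.83 and 8.94 FPKM and PWK at 8.58 and 2.104 FPKM. On chromosome 9, Spc24 and Anln lie in a first part (Alkbh8 to Uaca) with medians of 51.8% in PWK-Xi and 66.2% in B6-Xi. Anln followed it, at 53.0% and 68.1%. Spc24 had 85.8% in PWK-Xi and 76.2% in B6-Xi, high in both. Its B6 allele was 1.92-fold higher in PWK-Xi (19.9 and 10.4 FPKM) and its PWK allele was level (3.30 and 3.24 FPKM). Kif23 and Ttk lie further along, between Tle3 and Ryk, where medians were 50.8% and 45.9%. Kif23 had 43.2% in PWK-Xi and 57.1% in B6-Xi, with its 20 nearest genes at 56.7% and 56.9%. It lay 13.6 points below them in PWK-Xi and 0.26 points above them in B6-Xi.

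Cenpe lies at the end of chromosome 3, with medians of 51.4% in PWK-Xi and 72.4% in B6-Xi between Hiat1 and Cyr61, and had 58.1% and 66.7%. Elsewhere on that chromosome, Ect2 had 47.4% and 43.2%, and Smc4 had 47.1% and 47.4%, in PWK-Xi and B6-Xi. On chromosome 4 outside the part around Smc2, Kif2c had 61.8% in PWK-Xi and 63.6% in B6-Xi, 8.08 and 18.5 points above its neighbours. Of the chromosome 7 genes other than Plk1, Bub3 had 54.4% and 50.0%, Prc1 had 49.9% and 48.9%, and Mki67 had 49.8% and 54.7%. Mki67 lay 10.53 points above its neighbours in B6-Xi, and the other differences of these 3 from their neighbours were under 5 points. Cdca3, Mad2l1 and Ncapd2 of chromosome 6 had 56.2%, 51.1% and 59.0% in PWK-Xi and 51.4%, 45.8% and 61.9% in B6-Xi. On chromosome 17, Ndc80 had 59.4% and 61.7%, above its neighbours in both lines, and Sgol1 had 52.5% and 46.7%, below them in both. Kif11 of chromosome 19 had 48.5% and 50.0%. Racgap1 had a share of 66.7% in PWK-Xi and none in B6-Xi.

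**Figure D4:**
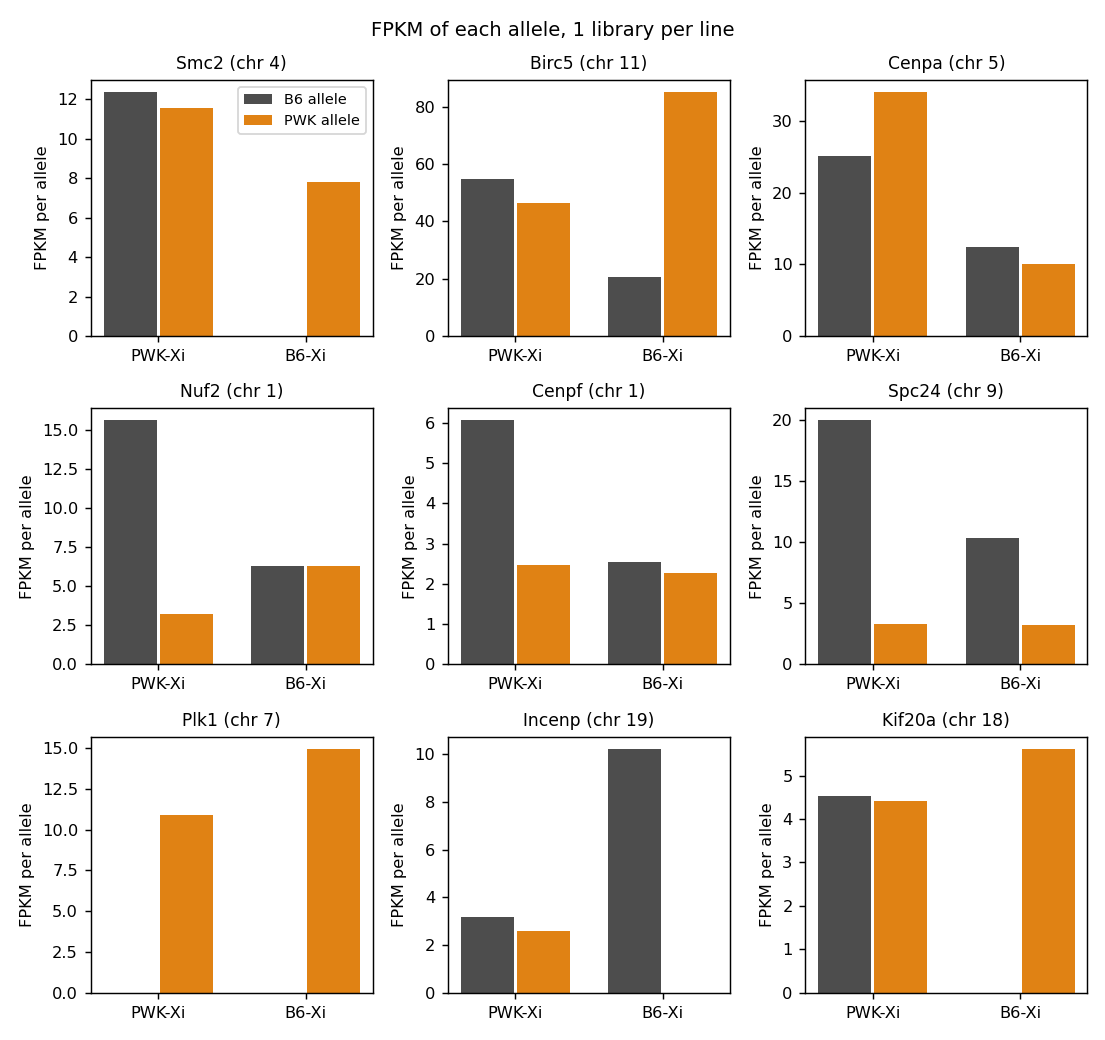
FPKM of the B6 allele (grey) and of the PWK allele (orange) in PWK-Xi (left pair) and B6-Xi (right pair) for 9 mitotic genes, 1 library per line, with axes that start at 0. The B6 allele of Birc5 is higher and its PWK allele lower in PWK-Xi, Smc2 has no B6 allele in B6-Xi, and Plk1 has none in either line.

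Genes that departed from their neighbours were few. Plk1, on chromosome 7, was listed at 0 for the B6 allele in both lines, with 10.9 FPKM in PWK-Xi and 14.9 FPKM in B6-Xi from PWK, while its neighbours had median shares of 59.6% and 56.8%. It was the only one of 40 genes past 20 points in both lines (all genes 5.97%, or 4.4% in the same direction), and the only one with a share of at most 10% in both lines, against 0.417% of 7435 autosomal genes. The annotation holds a processed pseudogene, Plk-ps1, on chromosome 5, that matches 1813 of the 2199 bases of the Plk1 transcript at 93.5% identity. How reads of such a copy were handled is not given, so the share of Plk1 is uncertain. The part of this copy in the share was not tested. Kif20a, on chromosome 18, had 4.53 FPKM from B6 and 4.40 FPKM from PWK in PWK-Xi, but 0 and 5.61 FPKM in B6-Xi, where its neighbours had 51.9%. Its transcript overlaps that of Cdc23 over 979 bases, and Cdc23 had a share of 57.8% in PWK-Xi and 81.25% in B6-Xi. How reads in the overlap were assigned is not given, so this share is uncertain too.

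Incenp, on chromosome 19, showed the reverse of Kif20a. It had 3.18 FPKM from B6 and 2.58 FPKM from PWK in PWK-Xi, and 10.2 FPKM from B6 and 0 from PWK in B6-Xi, with neighbours at 52.4% and 49.9%. No transcript of another gene matched Incenp at 90% identity over 200 bases. Aurka and Ttk (75% in B6-Xi, neighbours 47.4%) and the barely expressed Espl1 (80%, neighbours 53.5%) were also more than 20 points above their neighbours in B6-Xi, and within 20 points in PWK-Xi. Of the 6 genes past 20 points in B6-Xi, all but Aurka had a share there equal to a ratio of whole numbers no larger than 10. Such coarse shares were found for 45.4% of all autosomal genes in B6-Xi. In PWK-Xi, Spc24 was the only gene beside Plk1 past 20 points, at 25 points above its neighbours. Just inside the threshold was Cdca8, on chromosome 4, at 19.98 points above its neighbours in PWK-Xi and 17.3 in B6-Xi. A match to a pseudogene at 90% identity or more over at least 200 bases was found for 12 of the 42 genes, and covered over 50% of the transcript for 2 of them, Plk1 and Cdc20. Kif2c matched a long noncoding RNA, Gm4961, at 91.7% identity over 1443 of its 2842 bases, so its share is less certain too. Transcripts of Sgol2 and Prc1 also share identical stretches with those of Kctd18 and Rccd1, over 2363 and 670 bases, which leaves their values less certain. Cdc20 had shares of 58.6% and 44.2%, near its neighbours in both lines.

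Totals were set against the neighbours in the same way, with log2(PWK-Xi/B6-Xi) and no pseudocount, for genes above 0 in both lines with a mean of at least 5 FPKM. Of 32 mitotic genes, 22 lay above the median of their neighbours, against 50.2% of 4688 genes, and the median excess was 0.16, against 0.01 for all genes. Pearson's r between genes and neighbours was 0.46 over these 32, again a description of 2 libraries. Smc2 had 1.62 with neighbours at 0.92, so its neighbours differed in the same direction by less. Cenpa had 1.40 with neighbours at 0.48. Birc5 had -0.06 with neighbours at -0.99, and was thus level in total where genes around it were lower in PWK-Xi. Hmmr, on the same chromosome, had 0.57 with neighbours at -0.21. Ncaph (-0.46 with 0.58) and Incenp (-0.83 with 0.19) lay furthest below their neighbours. The 22 genes on skewed autosomes that reached 5 FPKM in PWK-Xi or B6-Xi had a median difference of 0.52, and the 17 on the other autosomes 0.30. All genes also had a lower median on those other autosomes, 0.09, against 0.23 for all 5490.

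**Figure D5:**
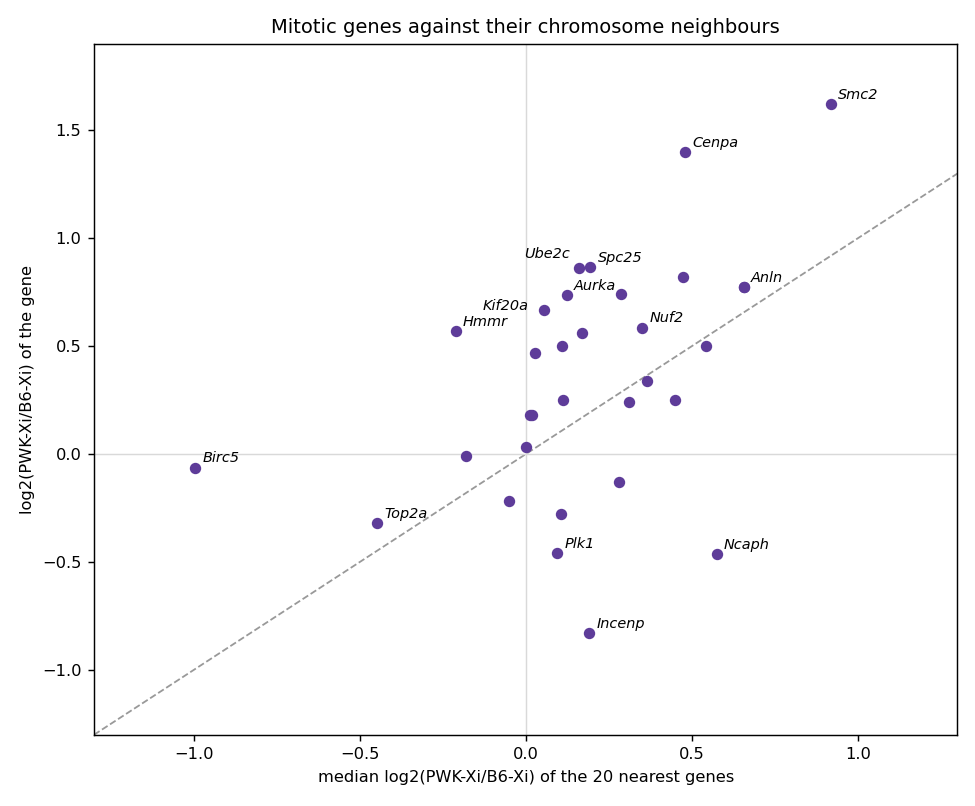
log2(PWK-Xi/B6-Xi) of total FPKM for 32 mitotic genes (vertical axis) against the median of their 20 nearest genes (horizontal axis), with the line of equality dashed and 1 library per line. Smc2 and Birc5 sit at the right and left ends, and 22 of the 32 points lie above the line.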

How the data were processed

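Polyadenylated RNA of 2 immortal fibroblast lines was prepared with Smart-seq2, per the labels' protocols. The authors deposited FPKM values per gene, 1 column for each allele, per the file headers. Per the submitters' processing notes, the tools were HISAT2 2.2.0, Trim Galore 0.6.4 and StringTie 2.1.1, with mm9 as the build. The step that split reads by allele is not described, and the files hold no counts, so depth is unknown and no counting interval is given.

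Totals were sums of both alleles, and differences used a pseudocount of 1 and a minimum of 5 FPKM in either line. Shares used at least 1 FPKM in that line. The order of genes along chromosomes was read from GENCODE M21 and RefSeq tables of the later build GRCm38, with 40 of the 42 symbols matched by GENCODE name and Sgol1 and Sgol2 by RefSeq synonym. Pseudogene matches came from a megablast search of GENCODE transcripts. The work used pandas 2.3.3, numpy 2.4.6 and matplotlib 3.10.9 under Python 3.11.15, and the scripts were tested on simulated data. All 42 genes are named, and of each comparison list the 3 most abundant genes and the largest difference in each direction. Cell type markers are given by count with the highest of each list. Vim, Dcn, Col1a2, Cdc23, Casc5, Oip5, Ncapd3 and Pkmyt1 were named after their values were seen. The genes and lists were chosen with earlier results of these data known. The comparisons with neighbours' totals, without matching genes and without S100a4 were added after the data were seen. The named parts of chromosomes 3, 4, 9 and 11 were not planned either, and no rule for their edges is given.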

Additional observations from a re-analysis of the deposited data

How the results depend on the processing

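The median log2 difference of the mitotic genes kept its sign under each alternative tried. It was 0.45 as reported, 0.33 with a pseudocount of 5, 0.28 with a minimum of 20 FPKM, 0.26 relative to all genes, 0.60 with equal summed FPKM, 0.30 on autosomes skewed in neither line and 0.16 relative to neighbours. In the same order, the median of all genes was 0.23, 0.17, 0.16, 0.03, 0.39, 0.09 and 0.01. The count at least 2-fold higher in PWK-Xi, 5 as reported, was 3 with a pseudocount of 5, 2 with a minimum of 20 FPKM, 2 with a mean of 5 FPKM and above 0 in both, 3 relative to all genes, 1 on autosomes skewed in neither line and 3 without genes that match another transcript. At 4-fold the count was 1 of 39 (387 of 5490). The count at least 2-fold lower was 0 wherever it was recounted. Genes more than 20 points from their neighbours, 2 of 41 in PWK-Xi and 6 of 40 in B6-Xi, numbered 1 and 3 at 30 points (all genes 7.76% and 14.6%). Against the whole chromosome the B6-Xi count was 11 of 40 (28.2%), and without matching genes the PWK-Xi count was 1 of 23. The B6 share of the summed FPKM in B6-Xi was 45.6%, below the median share of 50.7%, and 51.1% without Birc5. The summed FPKM of fibroblast markers had a ratio of PWK-Xi over B6-Xi of 0.223, and 2.02 without S100a4. The cause of these changes was not tested. Of the values recomputed for the mitotic genes, 27 stayed close to those reported and 18 did not, within 1.5 times for counts, 0.1 for log2 medians and 5 points for shares. Because there was 1 library per line, leaving out a replicate was not possible. No paired analysis was possible because each line has 1 library, and the groups share only 1 replicate number. Depth is unknown, so how far low genes such as Ttk and Espl1 are limited by counting could not be given.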
